A study of Mus musculus with 16 samples.

Results

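The 9 genes through which lung cells are known to sense components of house dust mite, or to pass on and restrain that signal, were examined. They were taken by symbol from the platform annotation, using probe sets that carried the symbol alone and, for a gene with several, the one with the highest mean level. Of the 9 genes, 8 were found among 19938 genes measured: Tlr2, Tlr4, Ly96, Cd14, Myd88, Clec7a, Clec4n and Tnfaip3. F2rl1, the gene of a receptor cleaved by mite proteases, was not analysed here.

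Total RNA of whole lung was hybridised to 16 Affymetrix arrays that read along the whole transcript, 4 in each of 4 groups, described as biological replicates. The groups were Vldlr knockout mice given house dust mite extract (KO HDM), Vldlr knockout mice given saline (KO saline), wild-type B6129SF2/J mice given the extract (WT HDM) and wild-type B6129SF2/J mice given saline (WT saline). Mite extract (25 µg) or saline, each in 10 µl, went into the nose on 5 days a week for 6 weeks. The labels name the strain of the WT mice only, give no age, and do not say how many animals lay behind an RNA sample, so the tests weigh differences against the variation among these RNA samples alone, which may be technical.

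In the lung these sensors sit on macrophages, dendritic cells, neutrophils and epithelium. Tlr4 binds lipopolysaccharide only together with the small protein MD-2, the product of Ly96, and Cd14 hands the lipid over to that pair. A major mite allergen resembles MD-2 in structure, and mite extracts also carry bacterial lipopolysaccharide. Tlr2 recognises lipoproteins, while the C-type lectins dectin-1 (Clec7a) and dectin-2 (Clec4n) recognise β-glucans and mannose-rich glycans of fungi and mites. Tlr2 and Tlr4 signal through the adaptor Myd88 to NF-kB, and the ubiquitin-editing enzyme A20, encoded by Tnfaip3, turns that signal down.

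Levels are on the log2 scale of the deposited values and can be compared between arrays for a gene, but not between genes. Array medians lay between 8.78 and 8.85. The lung markers Sftpc, Scgb1a1 and Ager ranked at or above the 98.7th percentile of mean level. In Vldlr itself no KO array reached the level of a WT array, and KO minus WT was -0.93 under HDM (SE 0.12, adjusted p = 0.000277) and -0.76 under saline (SE 0.12, adjusted p = 0.00697). Whether its probes lie in the disrupted stretch of the gene is not stated. A gene passed a comparison if its limma p, after Benjamini-Hochberg adjustment across the 19938 genes, was under 0.05, and n was 4 arrays per group throughout.

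Among the saline arrays WT saline 2 and 3 had the highest Rnase2a, an eosinophil-associated ribonuclease, with levels of 11.47 and 11.22, while the other WT saline arrays had 8.54 and 9.68 and the KO saline arrays 6.63 to 8.26. Leaving both out gave a KO minus WT difference in Vldlr of -0.81 under saline (adjusted p = 0.0551), no longer a call. With them left out, Myd88 alone among the sensors lost a call, as given with its values.

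In KO lungs given HDM, 4 of the 8 sensors were higher than under saline and 2 were lower. Clec7a, Ly96, Tnfaip3 and Tlr4 rose, and Tlr2 and Cd14 fell. Of all genes tested, 8.84% passed this comparison, 4.96% as higher and 3.88% as lower. Ranges of the groups did not overlap for 4 of the 8, against 14% of all genes. In WT lungs 3 sensors were higher under HDM, the same Clec7a, Ly96 and Tlr4, and 1 was lower, Myd88, against 17.6% of all genes that passed, 7.86% as higher and 9.72% as lower. Ranges did not overlap for 4 of the 8, against 23.5% of all genes. The median change of the 8 was 0.13 in KO lungs and 0.25 in WT lungs, and that of all genes was -0.03 and -0.05. The 2 comparisons share no array.

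**Figure D1:**
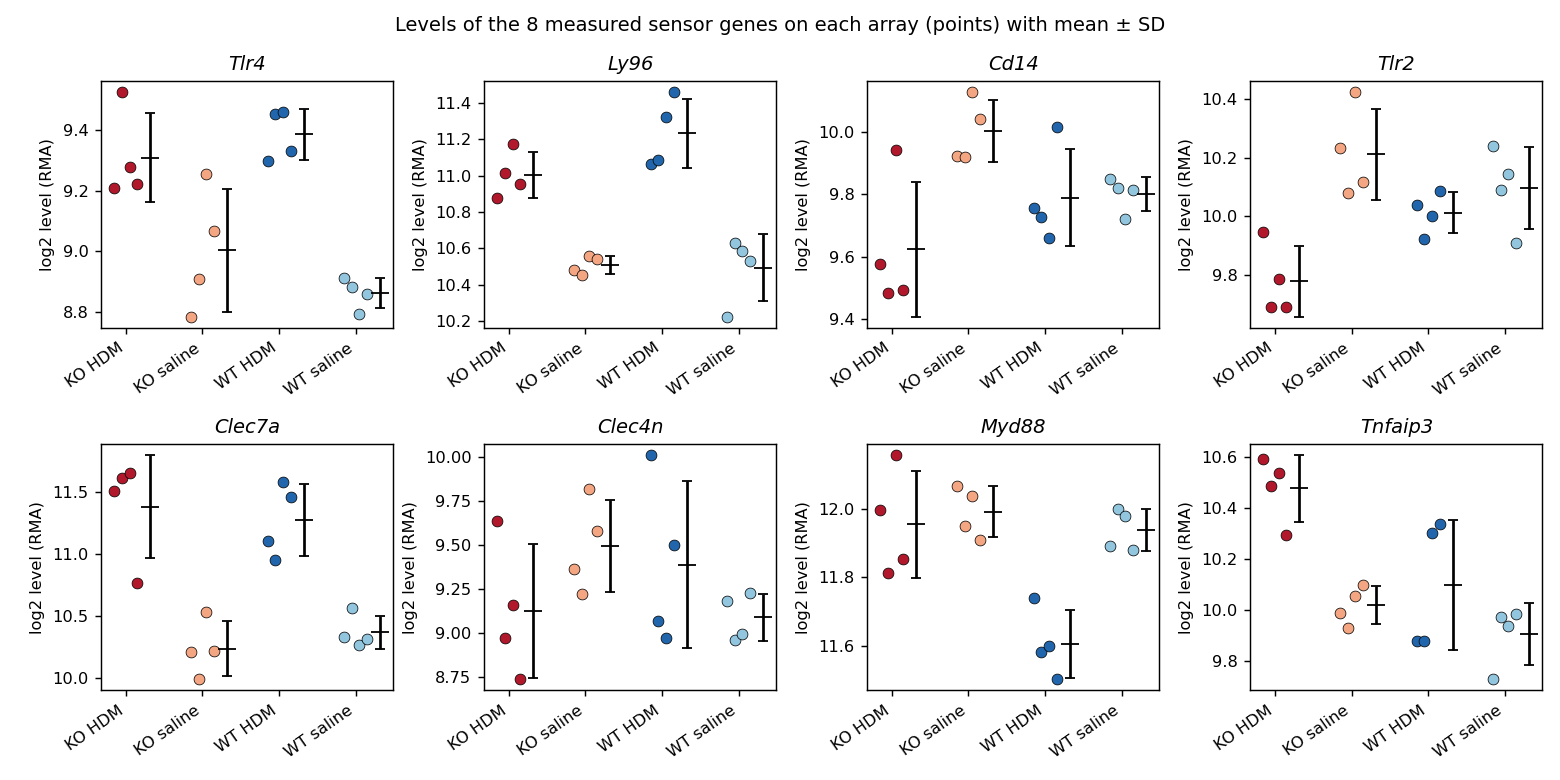
Each panel plots the log2 level (y axis) of 1 sensor gene on each of the 16 arrays (points) by group (x axis), with a bar for the group mean and whiskers for the SD (n = 4). Clec7a and Ly96 are higher on every HDM array than on every saline array of the same genotype, while Clec4n overlaps throughout.

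Clec7a, which encodes the β-glucan receptor dectin-1, changed most among the 8. Its level was 11.51, 11.61, 11.65 and 10.76 on KO HDM arrays 1 to 4, and 10.21, 9.99, 10.53 and 10.21 on the KO saline arrays. On the WT HDM arrays it was 11.10, 10.95, 11.58 and 11.46, and on the WT saline arrays 10.33, 10.57, 10.26 and 10.31. All HDM arrays lay above all saline arrays, and KO HDM 4 lay nearest to them. The HDM change was 1.15 in KO lungs (SE 0.17, 2.22-fold, adjusted p = 0.000526) and 0.91 in WT lungs (SE 0.17, 1.87-fold, adjusted p = 0.00313). Without KO HDM 4 the KO change was 1.36, and it passed without each array in turn in both genotypes. Changes of at least this size were seen in 0.476% of all genes in KO lungs and 0.356% in WT lungs. The level did not pass between genotypes under HDM (0.11, 95% interval -0.26 to 0.47, adjusted p = 0.741) or under saline (-0.13, 95% interval -0.50 to 0.23, adjusted p = 0.943).

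Clec4n, which encodes dectin-2, has no signalling tail of its own and depends on the adaptor chain Fcer1g. Its level varied widely within groups. It was 9.64, 8.97, 9.16 and 8.74 on the KO HDM arrays and 9.37, 9.22, 9.82 and 9.58 on the KO saline arrays. On the WT HDM arrays it was 10.01, 9.07, 8.97 and 9.50, and on the WT saline arrays 9.18, 8.96, 8.99 and 9.23. The SD was 0.38 under HDM in KO and 0.48 in WT lungs, and the groups overlapped in every comparison. The HDM change was -0.37 in KO lungs (95% interval -0.80 to 0.06, adjusted p = 0.294) and 0.30 in WT lungs (95% interval -0.13 to 0.73, adjusted p = 0.296). The difference between these changes was -0.67 (95% interval -1.28 to -0.06) and did not pass (adjusted p = 0.268). Thus dectin-1 passed in both genotypes, while for dectin-2 these intervals allow a change in either direction.

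Tlr4 and its partner Ly96 both rose under HDM. Ly96 was at 10.88, 11.01, 11.17 and 10.95 on KO HDM arrays, against 10.48, 10.45, 10.56 and 10.54 on KO saline arrays. On WT HDM arrays it was at 11.06, 11.09, 11.32 and 11.46, against 10.23, 10.63, 10.59 and 10.53 on WT saline arrays. No HDM array overlapped a saline array in either genotype. Ly96 rose by 0.49 in KO lungs (SE 0.10, 1.41-fold, adjusted p = 0.00365) and by 0.74 in WT lungs (SE 0.10, 1.67-fold, adjusted p = 2e-04). Both calls held without each array in turn.

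Tlr4 was at 9.21, 9.53, 9.28 and 9.22 on KO HDM arrays, against 8.78, 8.91, 9.26 and 9.07 on KO saline arrays. KO saline 3 lay above 2 of the KO HDM arrays. The change was 0.31 (SE 0.09, adjusted p = 0.0393), and it did not pass without KO HDM 2 (0.23) or 3 (0.32), or without KO saline 1 (0.23), 2 (0.27) or 4 (0.33). Nor did it pass with only the 2 groups compared (adjusted p = 0.0977) or with every probe set tested (adjusted p = 0.0685). In WT lungs Tlr4 was at 9.30, 9.45, 9.46 and 9.33 under HDM, against 8.91, 8.88, 8.79 and 8.86 under saline, with no overlap. There it rose by 0.52 (SE 0.09, 1.44-fold, adjusted p = 0.00143), and it passed without each array in turn, but not with the mean clock gene level as a covariate (0.41, adjusted p = 0.0557). Tlr4 and Ly96 levels did not pass between genotypes under HDM (-0.08, adjusted p = 0.63, and -0.23, adjusted p = 0.134) or under saline (0.14, adjusted p = 0.8, and 0.01, adjusted p = 0.997).

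Cd14, the co-receptor of this complex, and Tlr2 moved the other way in KO lungs. Tlr2 was at 9.95, 9.69, 9.78 and 9.69 on KO HDM arrays, against 10.23, 10.08, 10.42 and 10.11 on KO saline arrays, and the groups did not overlap. It fell by 0.44 (SE 0.08, adjusted p = 0.00352), a call kept without each array in turn. On WT HDM arrays Tlr2 was at 10.04, 9.92, 10.00 and 10.09, against 10.24, 10.09, 10.14 and 9.91 on WT saline arrays, which overlapped (-0.08, 95% interval -0.26 to 0.09, adjusted p = 0.485).

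Cd14 was at 9.58, 9.48, 9.94 and 9.49 on KO HDM arrays, against 9.92, 9.92, 10.13 and 10.04 on KO saline arrays, where KO HDM 3 lay above 2 saline arrays. It fell by 0.38 (SE 0.09, adjusted p = 0.0174), and the call ended without KO HDM 1 (-0.36) or 2 (-0.33) and without KO saline 3 (-0.34). On WT HDM arrays Cd14 was at 9.75, 9.73, 9.66 and 10.02, against 9.85, 9.82, 9.72 and 9.81 on WT saline arrays (-0.01, 95% interval -0.21 to 0.19, adjusted p = 0.939). Under saline Cd14 was higher on all 4 KO arrays than on the WT arrays, the only one of the 8 genes without overlap there (6.54% of all genes), but the difference of 0.20 did not pass (adjusted p = 0.63). Among 10 markers of neutrophils, which carry both receptors, 4 fell and 1 rose in KO lungs, and 5 fell and 1 rose in WT lungs. The 1 that rose was Retnlg, by 2.14 in KO and 1.59 in WT lungs, the largest change of the list. With HDM 3.88% of all genes fell and 4.96% rose in KO lungs, and 9.72% and 7.86% in WT lungs. The mean level of the neutrophil markers ranged between 8.73 and 9.01 on KO HDM arrays and 8.89 and 9.04 on KO saline arrays. It ranged between 8.66 and 8.87 on WT HDM arrays and 8.74 and 9.03 on WT saline arrays. Of 10 alveolar macrophage markers 4 fell and 1 rose in KO lungs (mean level 9.95 to 10.19 under HDM and 10.27 to 10.39 under saline). In WT lungs 3 rose and 0 fell (10.15 to 10.56 under HDM and 10.10 to 10.17 under saline). The part of neutrophils and alveolar macrophages in the Tlr2 and Cd14 changes was not tested. In whole lung, fewer cells of a type and less RNA per cell cannot be told apart.

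**Figure D2:**
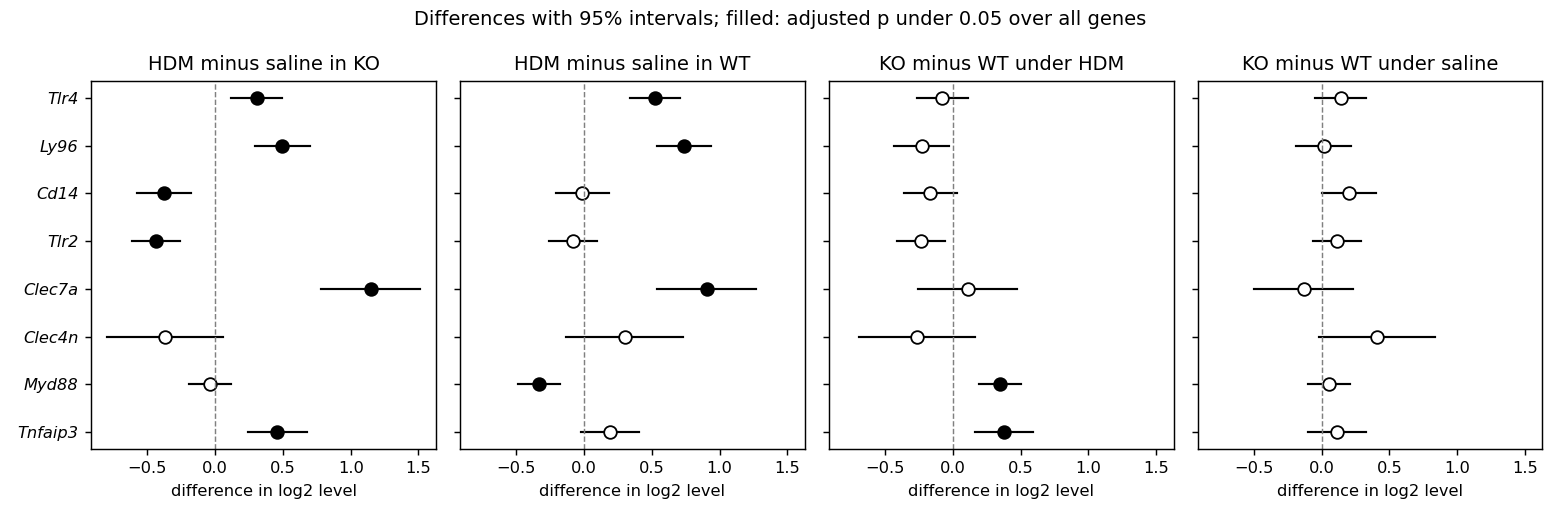
Each panel plots, for 1 comparison, the difference in log2 level (x axis) of each sensor gene (y axis), with a line for the 95% interval and a filled point where the adjusted p over all genes was under 0.05. Filled points number 6 for HDM in KO, 4 for HDM in WT, 2 for KO against WT under HDM and 0 under saline.

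Between genotypes, 2 of the 8 genes were higher in KO than in WT lungs under HDM, Myd88 and Tnfaip3, and none was lower, against 11.7% of all genes that passed, 5.84% as higher and 5.83% as lower. The ranges of 1 gene, Myd88, did not overlap, against 10.8% of all genes. Under saline 0 of the 8 passed by limma (0.231% of all genes, 0.0903% as higher and 0.14% as lower), with 1 at an unadjusted p under 0.05. The 2 comparisons of genotype share no array with each other, but each shares its arrays with the comparisons of HDM and saline. All these tests use the same spread per gene.

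Myd88, the adaptor of Tlr2 and Tlr4, was at 11.996, 11.81, 12.16 and 11.85 on KO HDM arrays and at 11.74, 11.58, 11.60 and 11.50 on WT HDM arrays. It was at 12.07, 11.95, 12.04 and 11.91 on KO saline arrays and at 11.89, 11.999, 11.98 and 11.88 on WT saline arrays. The 4 WT HDM arrays were the lowest of all 16, and the other 3 groups overlapped. The difference of KO from WT under HDM was 0.35 (SE 0.07, 1.27-fold, adjusted p = 0.00717). The HDM change was -0.33 in WT lungs (SE 0.07, adjusted p = 0.00667) and -0.04 in KO lungs (95% interval -0.19 to 0.12, adjusted p = 0.807). These calls held without each array in turn, but the WT change did not pass without WT saline 2 and 3 together (-0.28, adjusted p = 0.0921). The clock genes moved on the same arrays. Of 13 measured genes of the circadian clock, 1 was higher and 7 were lower in KO than in WT lungs under HDM, and 7 rose and 1 fell with HDM in WT lungs. The shares of all genes were 5.84% higher and 5.83% lower between genotypes, and 7.86% and 9.72% with HDM in WT lungs. The mean level of the 13 was 9.98 to 10.21 on KO HDM arrays and 9.91 to 10.11 on KO saline arrays. It was 10.23 to 10.59 on WT HDM arrays and 10.01 to 10.06 on WT saline arrays. With the clock score, in which each gene is scaled before averaging, as a covariate, the Myd88 difference under HDM was 0.23 (adjusted p = 0.265). The WT change was then -0.20 (adjusted p = 0.244). With only the 2 groups compared, the difference under HDM had an adjusted p of 0.0613.

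Tnfaip3 was at 10.59, 10.49, 10.54 and 10.29 on KO HDM arrays and at 9.99, 9.93, 10.05 and 10.10 on KO saline arrays. It was at 9.88, 9.88, 10.30 and 10.33 on WT HDM arrays and at 9.73, 9.97, 9.94 and 9.98 on WT saline arrays. The KO HDM arrays lay above all saline arrays, while WT HDM 1 and 2 lay among the saline arrays and WT HDM 3 and 4 above KO HDM 4. It rose with HDM in KO lungs by 0.46 (SE 0.10, 1.37-fold, adjusted p = 0.00876), a call kept without each array in turn. In WT lungs the change was 0.19 (95% interval -0.02 to 0.41, adjusted p = 0.182), and it passed with array weights (0.27, adjusted p = 0.0398). The difference of KO from WT under HDM was 0.38 (SE 0.10, adjusted p = 0.0237). It did not pass without KO HDM 1 (0.34), 2 (0.38) or 3 (0.36), or without WT HDM 1 (0.31) or 2 (0.31). It did not pass with only the 2 groups compared (adjusted p = 0.102) or with the clock covariate (0.21, adjusted p = 0.483).

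Of the 9 genes listed, 4 had an entry in the RefSeq promoter table (GRCm38.p6), and all 4 are shown. With HDM, Tnfaip3 was higher in KO lungs and Clec7a in both genotypes, while Tlr2 was lower in KO lungs and Myd88 in WT lungs. Each line gives the 250 bases before the annotated start of the gene's first listed entry, on the gene's own strand, which is the minus strand for all 4. Capitals mark matches on either strand to a form of the NF-kB motif (GGG, any 5 bases, then CC) or to the core of the interferon-stimulated response element (GAAA, any 2 bases, then GAAA).
Tnfaip3 (chr10:19015411-19015660): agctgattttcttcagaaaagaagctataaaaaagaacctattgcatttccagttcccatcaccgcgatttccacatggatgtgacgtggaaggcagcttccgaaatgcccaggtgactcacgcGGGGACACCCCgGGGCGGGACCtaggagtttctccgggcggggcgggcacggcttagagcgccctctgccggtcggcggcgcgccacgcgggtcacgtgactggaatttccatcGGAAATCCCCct
Tlr2 (chr3:83841609-83841858): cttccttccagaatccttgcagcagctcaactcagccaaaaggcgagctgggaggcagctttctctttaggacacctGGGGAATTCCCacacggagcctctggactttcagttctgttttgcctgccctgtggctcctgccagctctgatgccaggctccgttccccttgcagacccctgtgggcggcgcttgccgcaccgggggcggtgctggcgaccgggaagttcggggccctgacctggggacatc
Myd88 (chr9:119340019-119340268): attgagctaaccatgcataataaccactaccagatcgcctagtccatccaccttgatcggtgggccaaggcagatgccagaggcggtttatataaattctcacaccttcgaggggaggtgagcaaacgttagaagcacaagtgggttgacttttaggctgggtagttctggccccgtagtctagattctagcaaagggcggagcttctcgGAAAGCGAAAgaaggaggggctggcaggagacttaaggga
Clec7a (chr6:129472780-129473029): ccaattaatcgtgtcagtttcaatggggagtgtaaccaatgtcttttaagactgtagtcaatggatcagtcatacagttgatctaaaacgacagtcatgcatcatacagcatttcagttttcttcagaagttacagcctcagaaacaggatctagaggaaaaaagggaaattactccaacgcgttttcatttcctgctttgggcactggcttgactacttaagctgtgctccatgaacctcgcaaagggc
Tnfaip3 held 4 NF-kB matches, of which 2 overlap, and the nearest lay 12 to 3 bases before the start. Tlr2 held 2 overlapping matches, 173 to 163 bases before the start. Myd88 held 1 match to the interferon element, 40 to 31 bases before the start. Clec7a held neither motif in this window. The NF-kB motif occurred in 45.4% of the 27025 genes' windows of this length and the interferon motif in 3.04%. A match is a string of letters, and binding was not measured here.

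The HDM change did not pass as different between KO and WT lungs for any of the 8 sensors. By limma 0 of the 8 passed the interaction (0.802% of all genes, 0.356% as higher and 0.446% as lower), and 4 had an unadjusted p under 0.05. The difference of the KO change from the WT change was -0.35 for Tlr2 (95% interval -0.60 to -0.10, adjusted p = 0.159), -0.37 for Cd14 (-0.65 to -0.09, adjusted p = 0.188) and 0.30 for Myd88 (0.08 to 0.51, adjusted p = 0.17). It was 0.27 for Tnfaip3 (-0.04 to 0.57, adjusted p = 0.387), 0.24 for Clec7a (-0.27 to 0.76, adjusted p = 0.671), -0.24 for Ly96 (-0.53 to 0.04, adjusted p = 0.4) and -0.22 for Tlr4 (-0.48 to 0.05, adjusted p = 0.414). A call in 1 genotype and not in the other, as for Tlr2, Cd14, Myd88 and Tnfaip3, is therefore not shown to differ between them.

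The order of the group means differed between the sensors. Clec7a was highest in KO HDM, then WT HDM, WT saline and KO saline, and among neighbours in that order the ranges were apart between WT HDM and WT saline. Ly96 and Tlr4 had the order WT HDM, KO HDM, KO saline and WT saline. For Ly96 the ranges were apart between KO HDM and KO saline, and for Tlr4 all neighbours overlapped. Tlr2 and Cd14 had the order KO saline, WT saline, WT HDM and KO HDM, with overlap between neighbours except between KO saline and WT saline for Cd14. Myd88 had the order KO saline, KO HDM, WT saline and WT HDM, apart at the last step. Tnfaip3 had the order KO HDM, WT HDM, KO saline and WT saline, and Clec4n the order KO saline, WT HDM, KO HDM and WT saline, with overlap between all neighbours.

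Markers of monocytes and interstitial macrophages moved on the same arrays as Clec7a and Tnfaip3, and in part as Ly96. Of 10 measured markers of monocytes and interstitial macrophages, 6 rose and 2 fell with HDM in KO lungs, and 4 rose and 0 fell in WT lungs. Their mean level ranged from 10.80 to 11.29 on KO HDM arrays, from 10.50 to 10.70 on KO saline arrays, from 10.61 to 11.15 on WT HDM arrays and from 10.43 to 10.62 on WT saline arrays. KO HDM 4 (10.80) was the lowest of its group in this list, as it was for Clec7a and Tnfaip3. WT HDM 3 and 4 (11.15 and 11.14) stood above WT HDM 1 and 2 (10.74 and 10.61), as they did for both genes. For Ly96 WT HDM 3 and 4 also stood higher, but KO HDM 1 (10.88) was the lowest of its group, below KO HDM 4 (10.95). Of 7 eosinophil markers 5 rose in KO and 3 in WT lungs, and of 9 dendritic cell markers 4 rose in KO and 1 in WT lungs, with none that fell. With HDM 4.96% of all genes rose and 3.88% fell in KO lungs, and 7.86% and 9.72% in WT lungs. Under HDM 3 eosinophil and 4 dendritic cell markers were higher in KO than in WT lungs, where Tnfaip3 was also higher. Of the 10 monocyte and interstitial macrophage markers 1 was higher and 1 was lower there. Of all genes 5.84% were higher and 5.83% lower in that comparison. Of 9 airway epithelial markers 0 rose and 3 fell with HDM in KO lungs, and 2 rose and 0 fell in WT lungs. Of 8 alveolar epithelial markers 0 rose and 4 fell in KO lungs, and 1 rose and 2 fell in WT lungs. Under HDM 4 airway and 3 alveolar epithelial markers were lower in KO than in WT lungs, and none was higher. The mean level of the airway list was 10.98 to 11.33 on KO HDM arrays, 11.43 to 11.52 on KO saline arrays, 11.34 to 11.58 on WT HDM arrays and 11.29 to 11.43 on WT saline arrays. That of the alveolar list was 12.41 to 12.71 on KO HDM arrays, 12.76 to 12.84 on KO saline arrays, 12.60 to 12.85 on WT HDM arrays and 12.77 to 12.83 on WT saline arrays. The part of these cells in the changes was not tested.

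**Figure D3:**
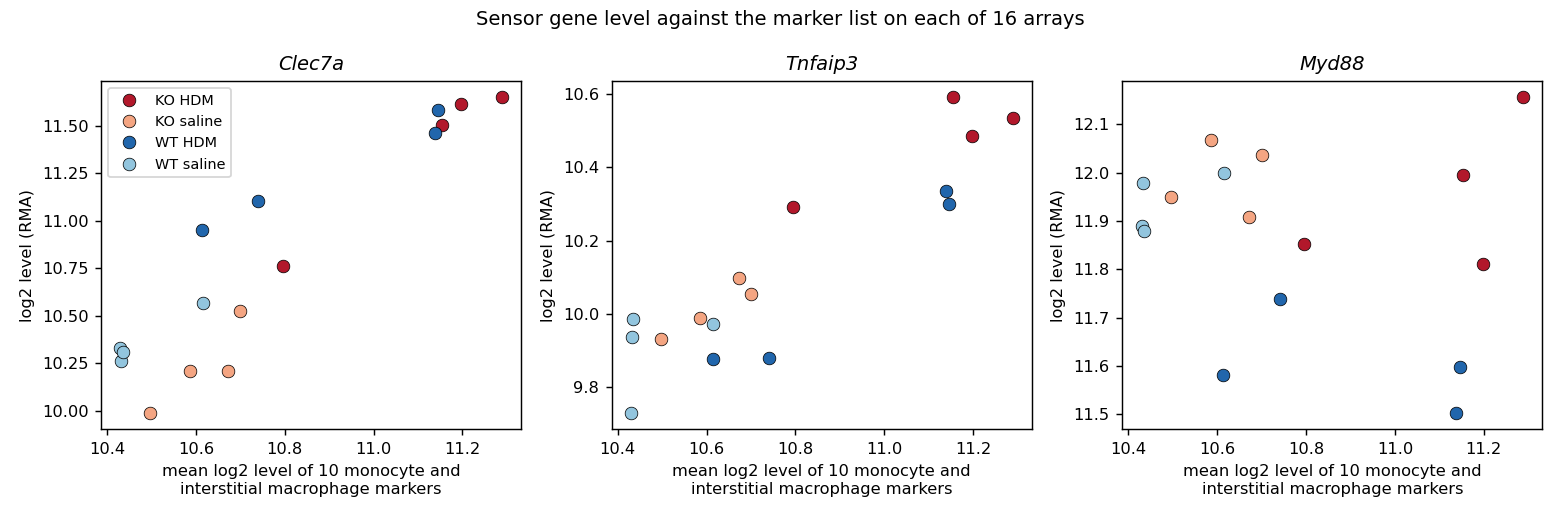
Each panel plots the log2 level (y axis) of Clec7a, Tnfaip3 or Myd88 against the mean log2 level of 10 monocyte and interstitial macrophage markers (x axis) on each of the 16 arrays, coloured by group. In the Clec7a and Tnfaip3 panels KO HDM 4 lies apart from the other 3 KO HDM arrays on both axes, and in the Myd88 panel the WT HDM arrays lie below all others.

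The genes most like each sensor in their level over the 16 arrays, by Pearson's r as a measure of likeness, differed between the sensors. The 16 arrays hold all 4 groups, so r includes the differences between groups. Nearest to Ly96 was Spi1 (r = 0.98), the gene of PU.1, a transcription factor of the myeloid lineage, then Prmt9 (r = 0.95) and Tent2 (r = 0.95). Spi1 was at 10.91, 10.86, 11.17 and 10.90 on KO HDM arrays, against 10.32, 10.15, 10.23 and 10.20 on KO saline arrays. It was at 11.13, 10.80, 11.46 and 11.86 on WT HDM arrays, against 9.84, 10.26, 10.31 and 10.21 on WT saline arrays. Its HDM groups lay above its saline groups in both genotypes. Spi1 was picked for its likeness to Ly96 on these same arrays, so this is not a separate observation.

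Nearest to Clec7a were P2ry2 (r = 0.97), a receptor for extracellular nucleotides, the myosin Myo1f (r = 0.96) and Cd200r1 (r = 0.96), an inhibitory receptor of myeloid cells. Nearest to Tnfaip3 were Plxnc1 (r = 0.97), a semaphorin receptor, Capg (r = 0.96), an actin-capping protein of macrophages, and Pdia4 (r = 0.95), a protein-folding enzyme. Within groups, the deviations of these 3 and of Tnfaip3 from the group means had r between 0.88 and 0.95. The 3 were picked by an r that contains these deviations, so this is not a separate observation. A high r of deviations was not particular to Tnfaip3. The same r for the 3 nearest genes was 0.83 to 0.90 for Clec7a and 0.82 to 0.86 for Tlr4. It was 0.73 to 0.86 for Ly96 and 0.42 to 0.66 for Tlr2. Tlr2 and Cd14 shared a near gene, Krt79 (r = 0.90 and r = 0.81), which is on the alveolar macrophage list. Nearest to Cd14 was Fdft1 (r = 0.89), the squalene synthase of cholesterol synthesis. The nearest to Tlr4 were Paxbp1 (r = 0.96), Kdm7a (r = 0.95) and Zfp873 (r = 0.94), and to Myd88 Clptm1, Dpagt1 and Slc35b1 (r = 0.92, 0.91 and 0.91), the second an enzyme of N-glycan assembly. Clec4n had the weakest nearest likeness, with Cyb561a3 at r = 0.84.

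Around the sensors, 102 further genes of the same pathways were measured. With HDM, 16 rose and 5 fell in KO lungs (20.6% of the 102 passed, against 8.84% of all genes), and 19 rose and 6 fell in WT lungs (24.5%, against 17.6%). Under HDM 10 were higher and 3 lower in KO than in WT lungs (12.7%, against 11.7%), and 0 passed under saline. With HDM in WT lungs, higher calls made up 44.7% of all calls, and 56.3% once every array had been given 1 common median. In KO lungs they made up 56.1%, and 46.8% after quantile normalization.

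Among 15 measured receptor partners of the Toll-like family, 1 rose and 1 fell with HDM in KO lungs, and 4 rose and 1 fell in WT lungs. Of all genes 4.96% were higher and 3.88% lower in KO lungs, and 7.86% and 9.72% in WT lungs. Tlr13, a mouse sensor of bacterial ribosomal RNA, rose by 0.91 in KO lungs (SE 0.23, adjusted p = 0.0179) and by 1.23 in WT lungs (SE 0.23, adjusted p = 0.00272). The KO call ended without KO HDM 1 (0.87), 2 (0.87) or 3 (0.87) or KO saline 2 (0.89). Tlr7, which senses single-stranded RNA, rose by 0.95 in WT lungs (SE 0.18, adjusted p = 0.00277), Tlr8 by 0.75 (SE 0.17, adjusted p = 0.00766) and Tlr3, which senses double-stranded RNA, by 0.45 (SE 0.08, adjusted p = 0.00272). The Tlr3 call ended with the clock covariate (0.28, adjusted p = 0.134). In KO lungs Tlr7, Tlr8 and Tlr3 did not pass (0.38, 0.19 and 0.02). Their KO and WT changes did not pass as different from each other (interaction, adjusted p = 0.273, 0.266 and 0.0951). Tlr9, a sensor of bacterial DNA, did not pass with HDM in KO lungs (0.21) or WT lungs (-0.10). On WT HDM arrays Tlr13 was at 10.09, 10.11, 11.27 and 11.37, against 9.40, 9.61, 9.47 and 9.42 on WT saline arrays, so WT HDM 3 and 4 were again the higher pair. Lbp, the serum protein that brings lipopolysaccharide to Cd14, fell by 0.41 in KO lungs (SE 0.09, adjusted p = 0.00842), from a saline mean of 12.57 to 12.16. In WT lungs its mean was 12.14 under saline and 12.25 under HDM (change 0.11, adjusted p = 0.391). The KO change of Lbp differed from the WT change by -0.52, which did not pass (adjusted p = 0.0624). KO minus WT under saline was 0.43 for Lbp and did not pass (adjusted p = 0.0623). The Tlr2 partners Tlr1 and Tlr6 did not pass with HDM in KO lungs (0.06 and 0.18) or WT lungs (-0.27 and 0.10). Under HDM 3 of the 15 were higher and 1 was lower in KO than in WT lungs, against 5.84% and 5.83% of all genes. Hsp90b1 was higher by 0.42 (SE 0.09, adjusted p = 0.00904) and Tlr9 by 0.35 (SE 0.10, adjusted p = 0.0337). Tlr3 was lower (-0.37, SE 0.08, adjusted p = 0.0104). With only the 2 groups compared these did not pass (adjusted p = 0.0602, 0.112 and 0.0794). The Tlr9 call also ended on leaving out 4 of 8 arrays, 1 at a time. Tlr1 was higher in KO than in WT lungs by 0.52 (SE 0.16, adjusted p = 0.0409). That call ended without KO HDM 1 (0.42), 2 (0.46) or 3 (0.51), without WT HDM 2 (0.37) or 4 (0.50), with only the 2 groups compared (adjusted p = 0.142), with a variance trend (adjusted p = 0.0563), with every probe set (adjusted p = 0.0693) and with the clock covariate (0.21, adjusted p = 0.681).

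Of 19 lectin relatives and lectin signalling genes 6 rose and 0 fell with HDM in each genotype. Of all genes 4.96% were higher and 3.88% lower in KO lungs, and 7.86% and 9.72% in WT lungs. Clec4a2, an inhibitory lectin of myeloid cells, rose by 1.15 in KO lungs (SE 0.14, adjusted p = 6.35e-05) and by 0.62 in WT lungs (SE 0.14, adjusted p = 0.00729). It was at 9.19, 9.20, 9.27 and 8.48 on KO HDM arrays and at 8.65, 8.21, 8.40 and 8.37 on WT HDM arrays, which KO HDM 4 overlapped. Clec4d and Clec4e, close relatives of Clec4n, did not pass in KO lungs (-0.31 and -0.30) or WT lungs (0.41 and 0.08). The kinase Syk, which dectins use, was at 0.36 in KO lungs (adjusted p = 0.0818) and 0.32 in WT lungs (adjusted p = 0.084). Card9, the adaptor behind it, was at 0.04 and -0.13 and did not pass in either. Fcer1g rose by 0.49 in WT lungs (SE 0.13, adjusted p = 0.0181), but the call ended without WT HDM 4 (0.36), WT saline 1 (0.42) or WT saline 2 and 3 together (0.58). The KO change of Fcer1g differed from the WT change by -0.26, which did not pass (adjusted p = 0.523). Clec9a, a receptor of dendritic cells for dead cells, rose by 0.48 in WT lungs (SE 0.08, adjusted p = 0.00152). Its KO change differed from that by -0.57 (adjusted p = 0.0353), a call that ended on leaving out 9 of the 16 arrays, 1 at a time (-0.64 to -0.53 over all 16).

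Of 18 measured genes of the Myd88 pathway, 1 was higher with HDM in KO and 3 in WT lungs, and none was lower, where 4.96% and 7.86% of all genes were higher and 3.88% and 9.72% lower. Irf5, a transcription factor activated through Myd88, rose by 0.46 in KO lungs (SE 0.09, adjusted p = 0.00368), and Tab3, a partner of the kinase TAK1, rose by 0.29 in WT lungs (SE 0.07, adjusted p = 0.00708). The Tab3 call ended without WT saline 2 and 3 together (0.28, adjusted p = 0.07) and with the clock covariate (0.20, adjusted p = 0.215). The KO and WT changes did not pass as different for Irf5 (adjusted p = 0.37) or Tab3 (adjusted p = 0.516). The list medians were 0.08 in both genotypes. Of 19 brakes of NF-kB, 2 rose in KO and 3 in WT lungs, and none fell, where 8.84% and 17.6% of all genes passed in either direction. Tnip3, which encodes a protein that binds A20, rose by 1.75 in KO lungs (SE 0.16, 3.36-fold, adjusted p = 5.57e-06) and by 1.34 in WT lungs (SE 0.16, 2.54-fold, adjusted p = 0.000161). It was at 10.43, 10.25, 10.73 and 9.96 on KO HDM arrays, against 8.30, 8.51, 8.89 and 8.69 on KO saline arrays. On WT HDM arrays it was at 9.74, 9.76, 10.23 and 10.20, against 8.47, 8.94, 8.66 and 8.48 on WT saline arrays. All HDM arrays lay above all saline arrays, with KO HDM 4 lowest in its group. Nfkbia, the classical inhibitor of NF-kB, did not pass (-0.12 in KO and -0.11 in WT lungs).

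Among 7 genes of the protease-activated receptors and their G proteins and arrestins, 2 rose in KO and 0 passed in WT lungs. In KO lungs 4.96% of all genes were higher, and in WT lungs 17.6% passed in either direction. F2rl2, a thrombin receptor related to F2rl1, was at 9.91, 9.66, 9.99 and 9.75 on KO HDM arrays, against 9.18, 9.07, 9.20 and 9.20 on KO saline arrays. On WT HDM arrays it was at 9.14, 9.001, 8.91 and 8.32, against 8.78, 9.09, 9.05 and 9.12 on WT saline arrays. KO HDM arrays lay above all other arrays. F2rl2 rose by 0.66 in KO lungs (SE 0.13, adjusted p = 0.00408), with a change of -0.17 in WT lungs (adjusted p = 0.368), and was higher in KO than in WT lungs under HDM by 0.99 (SE 0.13, adjusted p = 0.000538). Those calls held without each array in turn. The difference between the KO and WT changes was 0.83 (SE 0.19, adjusted p = 0.0475), and this call ended on leaving out 11 of the 16 arrays, 1 at a time (0.66 to 0.93 over all 16).

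NF-kB response genes moved in both directions, 4 higher and 4 lower of 24 in KO lungs and 3 higher and 5 lower in WT lungs. The shares of all genes were 4.96% higher and 3.88% lower in KO lungs, and 7.86% and 9.72% in WT lungs. Ccl3, a macrophage chemokine, rose by 1.89 in KO lungs (SE 0.38, adjusted p = 0.00448) and by 1.42 in WT lungs (SE 0.38, adjusted p = 0.0185), and the WT call ended without WT HDM 4 (1.07), without WT saline 1 (1.29) and without WT saline 2 and 3 together (1.62). Cxcl5 and Ccl20, chemokines of epithelium, fell in both. Cxcl5 fell by 1.23 in KO (SE 0.12, adjusted p = 9.09e-06) and by 1.55 in WT lungs (SE 0.12, adjusted p = 3.24e-06), and Ccl20 fell by 0.93 in KO (SE 0.12, adjusted p = 0.000157) and by 0.96 in WT lungs (SE 0.12, adjusted p = 0.000168).

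**Figure D4:**
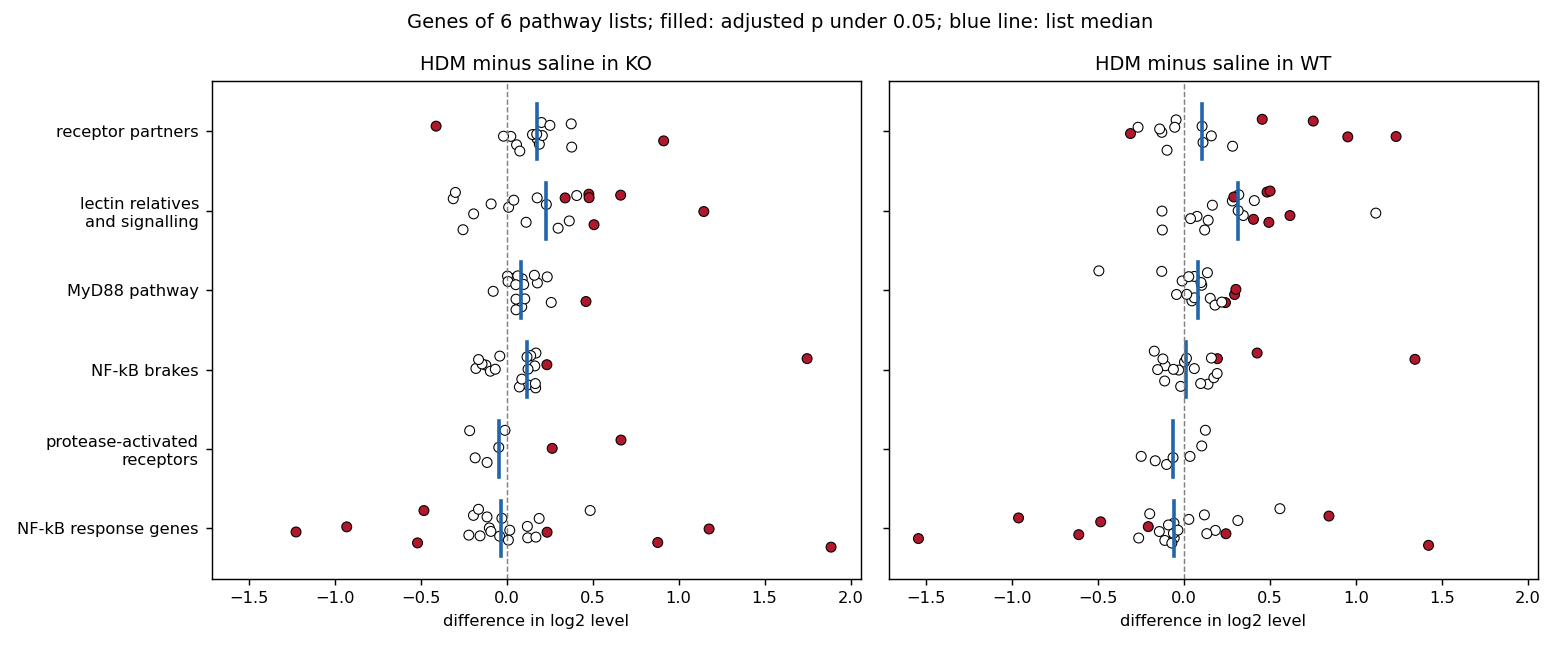
Each point is 1 gene of a pathway list (y axis) with its difference in log2 level between HDM and saline (x axis), in KO lungs on the left and WT lungs on the right, filled where the adjusted p was under 0.05, and blue lines are list medians. Tnip3, at 1.75 in KO and 1.34 in WT lungs, lies farthest to the right among the NF-kB brakes.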

How the data were processed

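RNA of 16 mouse lung samples was hybridised to 1 array each. The deposited values are log2 levels per probe set, which the submitters' processing notes credit to RMA in Affymetrix Expression Console. RMA corrects background, normalizes across arrays and summarises probes. Neither versions nor a genome build are given there. The table held 35556 probe sets, of which 21789 had 1 symbol, and the probe set with the highest mean was kept for each of 19938 genes.

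The fit used limma 3.58.1 under R 4.3.3 on the values as they stand, with 4 group means and 12 residual degrees of freedom, and no filter. Tests were two-sided, and Benjamini-Hochberg adjustment ran across all genes in each of 5 comparisons. The number of arrays limits the precision. The interaction is the HDM change in KO minus that in WT. The genes, pathway lists, marker lists, tests and alternatives were chosen with earlier results of these data known. Named genes were the sensors, the 3 genes most correlated with each over the 16 arrays, and up to 4 passing genes with the largest changes per list and comparison. Others named without a passing value are list members chosen after their values were seen. Rnase2a, which is on no list, was added to show saline arrays that stood apart, also with earlier results of these data known. The fit was tested on simulated data.

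Alternatives were quantile normalization, 1 common median for all arrays, a filter on dim genes at the 25th or 50th percentile, robust estimation with a variance trend, weights per array, only the 2 groups compared, the mean of probe sets, every probe set, the replicate number as a block, arrays left out, a clock score as a covariate and a 1.2-fold threshold. The clock score is the mean of the clock gene levels after each gene was scaled over the arrays. No pairing of the samples by replicate number was seen.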

Additional observations from a re-analysis of the deposited data

Results flagged for a closer look

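Clec7a on KO HDM 4 was at 10.76, apart from the other 3 KO HDM arrays at 11.51 to 11.65. Of 32 groups of 4 arrays examined, this was the 1 in which the lowest or highest array lay this far from the rest by Dixon's test, and chance gives about 1 in 20. Without this array the Clec7a change with HDM in KO lungs was 1.36.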

How the results depend on the processing

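Of 880 values of the sensors recomputed under the alternatives, 833 kept their direction and side of the threshold, 32 no longer passed, 2 newly passed and 13 changed sign, none of these a value that passed. Sensors called numbered 6 for HDM in KO lungs and 1 under a 1.2-fold threshold, 4 for HDM in WT lungs and 2 with the clock covariate or 1 under the 1.2-fold threshold, and 2 for KO against WT under HDM and 0 with only the 2 groups compared, with the clock covariate or under the 1.2-fold threshold. Leaving out 1 array at a time gave 4 to 6, 4 to 4 and 1 to 2 in these comparisons, and 0 to 0 under saline and for the interaction. The cause was not tested.

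Changes of sign were as follows. Cd14 with HDM in WT lungs was at 0.0115 with 1 common median, 0.0245 with array weights and 0.0253 with the clock covariate, and leaving out 1 array at a time gave -0.0875 to 0.0313. The same gave -0.104 to 0.0112 for Myd88 with HDM in KO lungs and -0.0747 to 0.0605 for Ly96, KO minus WT under saline, which was at -0.0168 with array weights. With the clock covariate, KO minus WT under HDM was 0.0244 for Tlr4 and -0.207 for Clec7a, and the interaction of Clec7a was -0.0904. The cause was not tested.

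With the replicate number as a block, Tlr2 passed between genotypes under HDM (-0.23, adjusted p = 0.045), and no other call of a sensor changed. The pairing of numbers had r over 0.1 in 1, 0, 2 and 1 of 4 pairs. Of 48 calls of pathway genes, 985 recomputed values held 222 that no longer passed and 0 that changed sign. Counts over all genes that moved by more than 1.5 times were these. Genes called numbered 1763 for HDM in KO lungs, 2938 with array weights, 174 under the 1.2-fold threshold, and 1034 (without KO HDM 3) to 2673 (without KO HDM 4). For HDM in WT lungs they numbered 3505, 2289 with the 50th percentile filter, 1057 without WT saline 2 and 3, 1173 with the clock covariate, 64 under the 1.2-fold threshold, and as few as 1960 (without WT HDM 4). For KO against WT under HDM they numbered 2327, 390 with only the 2 groups compared, 79 with the clock covariate, 35 under the 1.2-fold threshold, and 968 (without KO HDM 1) to 3831 (without KO HDM 4). Under saline they numbered 46, 19 with the 50th percentile filter, 110 with array weights, 98 with only the 2 groups, 10 without WT saline 2 and 3, 0 under the 1.2-fold threshold, and as few as 14 (without KO saline 1). For the interaction they numbered 160, 680 with array weights, 65 with every probe set, 258 with the replicate block, 12 without WT saline 2 and 3, 0 with the clock covariate, 1 under the 1.2-fold threshold, and 41 (without WT saline 3) to 1019 (without KO HDM 4).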
